A study of Mus musculus with 6 samples.

Results

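The axon guidance ligands and receptors are the ephrins and Eph receptors, the semaphorins with their plexin and neuropilin receptors, the Slits and Robos, and the netrins with Unc5 and Dcc. They were taken as every gene spot of the arrays whose gene name matches a fixed pattern of these families' symbols. The pattern leaves out the Slitrk and Ntng genes, whose names begin alike. For each gene 1 probe was kept, the one with the highest mean signal. This gave 69 of the 28786 gene names on the arrays, on 124 of 41174 probes. There were 8 ephrins, 14 Eph receptors, 20 semaphorins, 10 plexins and neuropilins, 7 Slits and Robos, and 10 genes of the netrin, Unc5 and Dcc group. That last group holds Unc50, which matches by name and is not a netrin receptor, and Ntn2l, the older name of Ntn3.

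The cells were neural stem cells grown from the subventricular zone along the lateral ventricles of mice aged 14 to 21 postnatal days. Each of 6 two-colour arrays paired wild-type (WT) with Dnmt3a-null (KO) cells, which lack a de novo DNA methyltransferase, 1 genotype per dye. On 4 arrays both genotypes were proliferating in 10 ng/ml of FGF-2 and of EGF, in cultures that the labels give as over 95% positive for Nestin and Sox2. On 2 arrays both had been replated with these mitogens for 2 days and then kept without them for 3 days, which the labels call spontaneous neuronal and glial differentiation. The labels do not give the Dnmt3a-null allele, the strain, or whether a culture pooled animals. They call the arrays biological replicates, and KO RNA was in Cy5 on proliferating replicates 1 and 3 and differentiated replicate 2, and in Cy3 on the other three.

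Guidance ligands are secreted or held on the membrane of a neighbouring cell, and their receptors turn that contact into attraction or repulsion of a growing axon or a migrating cell by remodelling its cytoskeleton. Ephrins bind Eph receptor tyrosine kinases, semaphorins bind plexins with or without a neuropilin, Slits bind Robos, and netrins bind Dcc and Unc5 receptors. In the postnatal subventricular zone, Eph and ephrin signals act on stem cell proliferation, and Slit and Robo signals steer the neuroblasts that leave for the olfactory bulb.

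Between 52.0% and 58.8% of probes were well above background in either dye of an array, and the number of arrays limits the precision. Dnmt3a was lower in KO cells on all 6 arrays, by 0.96 ± 0.22 (SD, n = 4) in proliferating and by 1.38 ± 0.14 (SD, n = 2) in differentiated cells on the log2 scale. Proliferating replicates 3 and 4 stand apart in sex-linked genes: the log2 signal of Xist, which coats the inactive X chromosome, was 12.69 and 13.34 in their WT cells and 11.27 and 11.06 in their KO cells, against 5.92 to 6.08 on the other arrays, and that of the Y-linked Ddx3y was 6.05 and 5.89 in WT against 8.46 and 8.83 in KO cells. Gene by gene KO over WT ratios correlated between proliferating arrays at r of 0.046 to 0.489, and at 0.704 between the differentiated arrays. All proliferating arrays came from slide 1 and both differentiated arrays from slide 2, scanned apart, so that slide and condition cannot be told apart wherever the conditions are compared. KO and WT cells were compared within each array.

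Of the 69 guidance genes, 60 were tested, those whose probe stood well above background, in either dye, on at least 2 arrays. The 9 others were Dcc, Epha6, Epha8, Epha10, Ephb6, Sema3c, Sema3d, Unc5cl and Unc5d. Of those, 6 were above background in no sample at all, and Dcc, the attractive netrin receptor, Epha8 and Ephb6 in some. Among the tested genes, 38 were above background in all 12 samples and 22 in some of them. These arrays measure bulk RNA, so that fewer cells of a type and less RNA per cell cannot be told apart. On build mm7, the probes of the genes that passed between KO and WT lie at chr11:69635983-69636042 (Efnb3), chr9:107328009-107328068 (Sema3b), chrX:69158882-69158941 (Plxnb3), chr16:73917461-73917520 (Robo2) and chr16:63790692-63790751 (Epha3), with Sema6a left out; their place in exons was not analysed here. Levels are log2 signals of 1 probe and are compared between samples, never between genes.

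DNA methylation falls mostly on CG dinucleotides, so the sequence before the start of 4 guidance genes is shown here with each CG in capitals. Plxnb3 and Epha3 are 2 genes that passed in KO against WT cells, and Unc5c and Slit3 are 2 that rose after mitogen withdrawal in both genotypes. The 250 bases before the start, 5′ to 3′ on the strand of the gene, are from RefSeq on build GRCm38.p6. They lie at chrX:73756853-73757102 (plus strand) for Plxnb3, chr16:63864176-63864425 (minus strand) for Epha3, chr3:141465314-141465563 (plus strand) for Unc5c and chr11:35121206-35121455 (plus strand) for Slit3.
Plxnb3: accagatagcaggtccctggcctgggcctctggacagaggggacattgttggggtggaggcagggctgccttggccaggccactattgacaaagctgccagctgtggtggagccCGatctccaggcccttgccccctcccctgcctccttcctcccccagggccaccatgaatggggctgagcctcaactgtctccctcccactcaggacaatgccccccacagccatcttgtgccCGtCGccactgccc
Epha3: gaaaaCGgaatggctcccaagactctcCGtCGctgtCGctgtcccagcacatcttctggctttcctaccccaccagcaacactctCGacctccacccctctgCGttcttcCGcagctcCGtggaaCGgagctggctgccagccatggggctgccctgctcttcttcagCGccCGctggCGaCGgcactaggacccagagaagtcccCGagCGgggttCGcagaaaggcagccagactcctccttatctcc
Unc5c: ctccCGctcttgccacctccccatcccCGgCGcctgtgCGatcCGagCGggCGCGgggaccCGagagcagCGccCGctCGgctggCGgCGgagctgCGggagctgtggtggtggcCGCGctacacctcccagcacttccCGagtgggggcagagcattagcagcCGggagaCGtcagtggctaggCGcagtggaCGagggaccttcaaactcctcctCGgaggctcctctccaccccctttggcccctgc
Slit3: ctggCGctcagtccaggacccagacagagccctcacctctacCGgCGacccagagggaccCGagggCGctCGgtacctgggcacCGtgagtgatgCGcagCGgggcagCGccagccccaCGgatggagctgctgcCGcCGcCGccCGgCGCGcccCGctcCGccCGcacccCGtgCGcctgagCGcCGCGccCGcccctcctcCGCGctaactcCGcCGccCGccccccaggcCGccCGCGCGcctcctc
The 4 sequences hold 3, 16, 23 and 35 CG in that order. With the 50 bases after the start added, the windows of 300 bases hold 4, 18, 24 and 41. RefSeq windows of this length matched 59 guidance genes, with a median of 22 CG and a range of 2 (Robo4, Sema3a and Sema4d) to 56 (Epha8), taking the most upstream start where a gene has several. The 10 genes without a window include Efnb3, Sema3b and Sema6a, which also passed in KO against WT cells. At least 10 CG were found in 49 of the 59 windows (83.1%), against 44% of the 27025 genes with a window, whose median was 7. These are counts of letters, and methylation was not measured on these arrays.

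In proliferating cells 2 of the 60 guidance genes passed between KO and WT (limma, Benjamini-Hochberg adjusted p under 0.05 over all 18062 genes tested): the ephrin ligand Efnb3 was higher and the Slit receptor Robo2 lower. That is 3.33%, beside 0.952% of all genes tested (0.615% higher and 0.338% lower in KO cells). In differentiated cells 5 of 60 passed, or 8.33%, beside 3.08% of all genes (2.18% higher and 0.902% lower). Efnb3, the semaphorins Sema3b and Sema6a and the plexin Plxnb3 were higher, and the Eph receptor Epha3 lower. No guidance gene passed for the difference between the KO effects of the conditions, beside 0.0498% of all genes. The lowest adjusted p in limma was 0.0864, for Plxnb3. An unadjusted p under 0.05 was found there for 17 guidance genes in limma. Here and below, the share of all genes under that unadjusted threshold is not given, so that such counts cannot be set against it.

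The family as a whole did not shift in one direction. The median log2 ratio of the 60 genes was 0.02 in proliferating and -0.02 in differentiated cells, against -0.01 and -0.01 over all genes tested, and 33 and 27 of the 60 ratios were above 0. The sizes were larger than in the whole set: the median absolute log2 ratio was 0.26 and 0.23, against 0.10 and 0.14. At least 1.5-fold apart were 8 guidance genes (13.3%) in proliferating and 19 (31.7%) in differentiated cells, beside 4.53% and 9.42% of all genes, most of them without passing the test. The ratio had the same sign on all 6 arrays for 15 guidance genes, a count that was not taken over all genes.

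**Figure D1:**
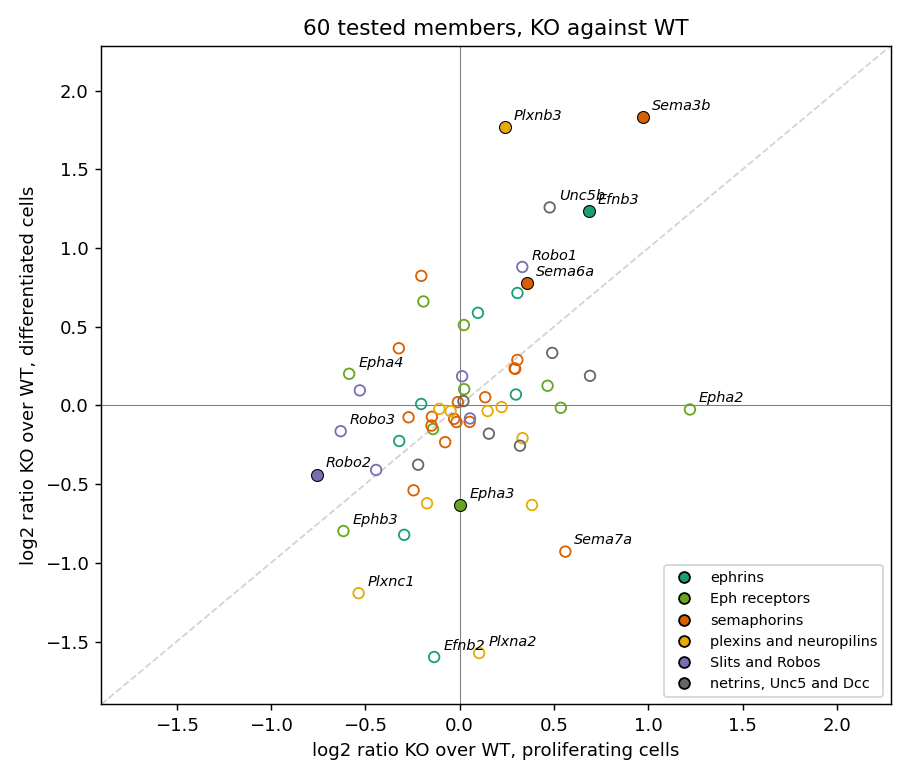
Log2 KO over WT ratio of the 60 tested guidance genes, proliferating cells on the x axis (mean of 4 arrays) and differentiated cells on the y axis (mean of 2), coloured by family; filled points passed in at least 1 condition, and the dashed line marks equal ratios. The 6 filled points include Sema3b at 0.97 and 1.83 and Robo2 at -0.76 and -0.44; Efnb2 (-1.60) and Plxna2 (-1.57) lie lowest on the y axis without passing.

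Among the ephrins, the ligands of the Eph receptors, Efnb3 was the gene that passed in both conditions. Efnb3 is a transmembrane ligand known as a midline barrier to corticospinal axons. Its log2 signal on proliferating replicates 1 to 4 was 8.10, 8.05, 7.93 and 7.93 in WT and 8.56, 8.91, 8.60 and 8.68 in KO cells. In differentiated replicates 1 and 2 it was 10.01 and 9.53 in WT and 11.52 and 10.48 in KO cells. Every KO sample lay above every WT sample of its condition, and the genotypes did not overlap. The log2 ratio was 0.68 ± 0.17 (SD, n = 4; 1.61-fold; limma adjusted p = 0.0330) in proliferating and 1.23 ± 0.40 (SD, n = 2; 2.35-fold; adjusted p = 0.0154) in differentiated cells. The difference of 0.55 between the conditions did not pass (adjusted p = 0.218). The call in proliferating cells was lost when any one of the 6 arrays was left out (ratio 0.61 to 0.73, adjusted p 0.0665 to 0.129) and without both arrays of unequal sex-linked signal (0.66, adjusted p = 0.111). The proliferating call of Efnb3 was also lost with median centring and with proliferating cells fitted alone. The call in differentiated cells was lost only when either differentiated array was left out, among all alternatives run (ratio 1.07 to 1.40).

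Efnb2, a ligand best known from arteries and from the neurogenic niche, had the lowest ratio of the ephrins in differentiated cells, at -1.61 and -1.59 on replicates 1 and 2. On the proliferating arrays it was -0.80, -0.42, 0.48 and 0.21, in no common direction. The fitted ratio in differentiated cells was -1.60 (adjusted p = 0.0659), and the second probe of Efnb2, above background on 2 arrays, gave -0.05. Efnb2 passed under 5 of 13 alternatives: without the dye term, without proliferating replicate 1 or 3, without both arrays of unequal sex-linked signal and with differentiated cells fitted alone (adjusted p 0.000717 to 0.0380). Efna3, an ephrin with a lipid anchor, was at -0.32 in proliferating cells (adjusted p = 0.155), negative on all 4 arrays. The other 5 ephrins had ratios from -0.29 to 0.31 in proliferating and from -0.82 to 0.71 in differentiated cells, and none passed.

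Of the 10 tested Eph receptors, Epha3, a receptor mainly of the A ephrins, passed in differentiated cells. Its log2 signal in differentiated replicates 1 and 2 was 7.70 and 7.09 in WT and 6.92 and 6.61 in KO cells, and both KO samples lay below both WT samples. The ratio was -0.63 ± 0.21 (SD, n = 2; adjusted p = 0.0410), with 2 of 2 WT samples and 1 of 2 KO samples above background. In proliferating cells the probe was above background in no sample, and the ratio was 0.0042 (adjusted p = 0.985). A second probe of Epha3, above background on 2 arrays, gave -1.17 in differentiated cells, and Agilent's processed signals gave -1.66, more than 1.5 times the fitted value. The call was lost without differentiated replicate 1 or 2, without proliferating replicate 2, 3 or 4, without both arrays of unequal sex-linked signal, and with median centring (ratio -0.76 to -0.51, adjusted p 0.0650 to 0.588).

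Epha2 had the highest ratio of any guidance gene in proliferating cells, 1.22 ± 0.84 (SD, n = 4), and did not pass (adjusted p = 0.137). It was positive on all 4 arrays but ran from 0.17 to 2.11, and WT and KO levels overlapped. Epha7 was at 0.54 ± 0.21 (SD, n = 4; adjusted p = 0.0855) in proliferating cells, where 3 of 4 KO samples and no WT sample were well above background, and passed with Agilent's processed signals (1.74, adjusted p = 0.0473). Ephb1, an axon repulsion receptor at the optic chiasm, was at 0.66 in differentiated cells (adjusted p = 0.133) and passed without proliferating replicate 2 (adjusted p = 0.0489). The other Eph receptors lay between -0.62 (Ephb3) and 0.47 (Ephb4) in proliferating and between -0.80 (Ephb3) and 0.51 (Epha5) in differentiated cells.

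Among the 18 tested semaphorins, 2 passed, both higher in differentiated KO cells. Sema3b is a secreted semaphorin that acts through neuropilins and A plexins. Its log2 signal in proliferating replicates 1 to 4 was 6.79, 6.65, 6.61 and 7.16 in WT and 7.83, 8.06, 7.35 and 7.86 in KO cells. In differentiated replicates 1 and 2 it was 7.52 and 7.38 in WT and 9.73 and 8.84 in KO cells. All KO samples lay above all WT samples of the same condition; 3 of the 4 proliferating WT samples were above background. The ratio was 1.83 ± 0.53 (SD, n = 2; 3.57-fold; adjusted p = 0.0211) in differentiated cells, and 0.97 ± 0.33 (SD, n = 4; adjusted p = 0.0597) in proliferating cells, just outside the threshold. The proliferating ratio of Sema3b passed with Agilent's processed signals (1.70), without the dye term and without both arrays of unequal sex-linked signal (adjusted p 0.0363 to 0.0469). The call in differentiated cells was lost without differentiated replicate 1 or 2 (adjusted p = 0.424 and 0.256).

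Sema6a, a transmembrane ligand of plexin A2 and A4, was at 0.45 and 1.11 on the differentiated arrays and at 0.47, 0.01, 0.71 and 0.25 on the proliferating ones. All 6 ratios were positive, and the lowest was near 0. The fitted ratio was 0.78 ± 0.46 (SD, n = 2; adjusted p = 0.0347) in differentiated and 0.36 ± 0.30 (SD, n = 4; adjusted p = 0.129) in proliferating cells. A second probe of Sema6a, above background on 5 arrays, gave 0.17 and 0.10, so that the probes disagree in size; the median over probes gave 0.17 (adjusted p = 0.435). The call was also lost without differentiated replicate 1 or 2, without proliferating replicate 2, 3 or 4, without the dye term and with median centring.

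Sema7a, an anchored semaphorin that binds plexin C1 and integrins, was at 0.12, 0.15, 0.55 and 1.41 on the proliferating arrays and at -0.93 and -0.93 on the differentiated ones. The signs of the conditions were opposite on all arrays. The difference was -1.49 and did not pass (adjusted p = 0.217). The remaining semaphorins lay between -0.32 (Sema3e) and 0.31 (Sema4a) in proliferating and between -0.54 (Sema5b) and 0.82 (Sema5a) in differentiated cells, and none passed.

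Of the 10 plexins and neuropilins, the receptors of the semaphorins, Plxnb3 passed in differentiated cells. Plxnb3, the plexin receptor of Sema5a, had on differentiated replicate 1 a log2 signal of 10.92 in WT against 12.68 in KO cells, and on replicate 2 one of 10.27 against 12.04. On proliferating replicates 1 to 4 it was 10.64, 11.15, 8.56 and 11.05 in WT and 10.69, 11.30, 9.09 and 11.29 in KO cells. The differentiated KO samples were the 2 highest of all 12, and the proliferating genotypes overlapped. The ratio was 1.77 ± 0.01 (SD, n = 2; 3.40-fold; adjusted p = 0.0129) in differentiated and 0.24 ± 0.21 (SD, n = 4; adjusted p = 0.306) in proliferating cells. The difference of 1.53 had an adjusted p of 0.0864, and of 0.0375 without the dye term. The call in differentiated cells was lost without differentiated replicate 1 or 2 (adjusted p = 0.277 and 0.226).

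Plxna2, a receptor of the class 6 semaphorins, was at -1.86 and -1.28 on the differentiated arrays, and at -0.32, -0.26, 0.19 and 0.81 on the proliferating ones. The fitted ratio in differentiated cells was -1.57 ± 0.41 (SD, n = 2; adjusted p = 0.0659), and the other 2 probes of Plxna2 gave -0.86 and -1.21. It passed under 4 of 13 alternatives: without the dye term, without proliferating replicate 4, without both arrays of unequal sex-linked signal and with differentiated cells fitted alone (adjusted p 0.00230 to 0.0368). In proliferating cells the plexins with the smallest p were Plxna4 at 0.33 (adjusted p = 0.164) and Plxna1 at 0.22 (adjusted p = 0.296). In differentiated cells 9 of the 10 ratios were below 0, all but that of Plxnb3. The median was -0.12, against -0.01 over all genes, and 10% of the ratios were above 0, beside 48.3% of all genes. The ratios of Plxna1, Plxnb1, Plxnb2 and Nrp1 lay close to 0, between -0.04 and -0.01.

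**Figure D2:**
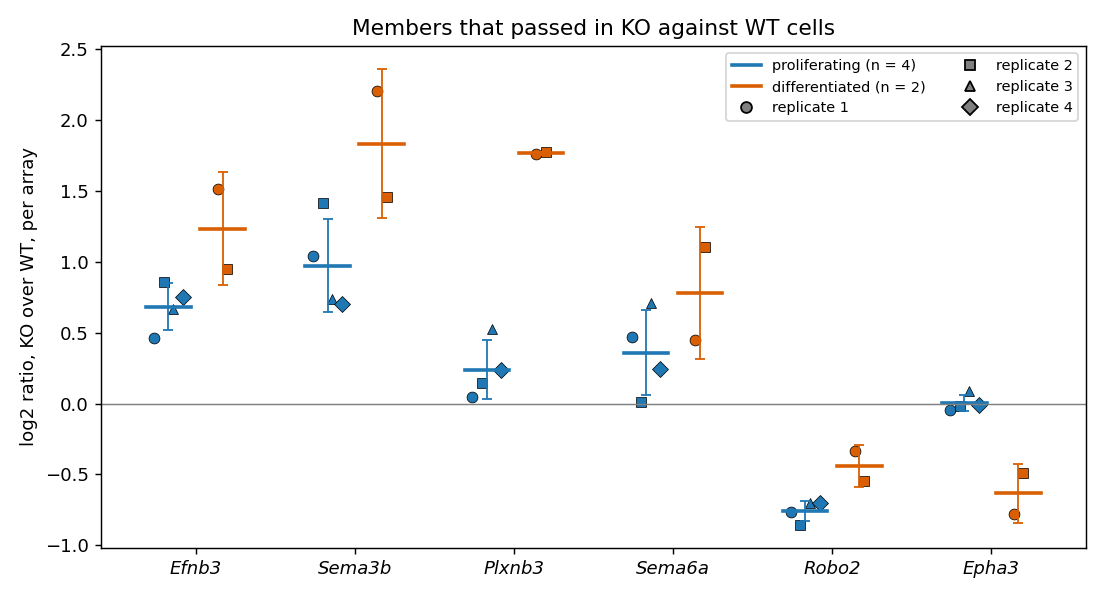
Log2 KO over WT ratio on each array for the 6 guidance genes that passed in at least 1 condition, proliferating in blue and differentiated in orange; symbols mark the replicates, horizontal lines the means and bars 1 SD. All plotted genes but Epha3 lie on one side of 0 on all 6 arrays, Sema6a with 0.01 on proliferating replicate 2. Plxnb3 is at 1.76 and 1.77 on the differentiated arrays against 0.05 to 0.53 on the proliferating ones.

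Among the Slits and Robos, Robo2, a receptor through which Slits repel axons and neuroblasts, was lower in proliferating KO cells. Its log2 signal on proliferating replicates 1 to 4 was 7.53, 7.49, 6.96 and 7.20 in WT and 6.76, 6.64, 6.26 and 6.50 in KO cells. Every KO sample lay below every WT sample, and 2 of the 4 KO samples were still above background. The ratio was -0.76 ± 0.07 (SD, n = 4; adjusted p = 0.0202), and the 4 arrays lay between -0.86 and -0.70. On the differentiated arrays it was -0.34 and -0.54, a fitted -0.44 (adjusted p = 0.0913). The 2 other Robo2 probes above background on 5 or more arrays gave -0.72 and -0.48 in proliferating cells. Agilent's processed signals gave -1.84, and the median over all 6 probes -0.40 (adjusted p = 0.108). With proliferating cells fitted alone Robo2 did not pass. The call was lost when any one of the 6 arrays was left out (-0.79 to -0.71, adjusted p 0.0516 to 0.0961) and without both arrays of unequal sex-linked signal (-0.81, adjusted p = 0.0724).

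Robo1, a paralogue of Robo2, had positive ratios on every array: 0.39, 0.26, 0.28 and 0.41 in proliferating and 0.52 and 1.24 in differentiated cells. It did not pass in either (adjusted p = 0.243 and 0.0522), and passed in differentiated cells under 4 of 13 alternatives: with median centring, without the dye term, without both arrays of unequal sex-linked signal and with that condition fitted alone (adjusted p 0.0334 to 0.0489). Robo4, known from blood vessels, was at -0.53 ± 0.32 (SD, n = 4; adjusted p = 0.141) in proliferating cells, and passed with Agilent's processed signals (-1.43, adjusted p = 0.0165). None of the Slits, the ligands, passed: Slit1, Slit2 and Slit3 were at 0.05, -0.44 and 0.01 in proliferating and at -0.08, -0.41 and 0.19 in differentiated cells. The proliferating ratio of Slit2 came mostly from replicate 2, with -0.10, -1.27, -0.26 and -0.14 on replicates 1 to 4.

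Of the 7 tested netrin, Unc5 and Dcc genes, 0 passed between KO and WT cells in limma, with 3 at an unadjusted p under 0.05 in proliferating and 2 in differentiated cells. Unc5a, a repulsive netrin receptor, was at 0.88, 0.80, 0.11 and 0.98 on the proliferating arrays (fitted 0.69, adjusted p = 0.118), above 0 on each. Ntn1, the netrin that attracts commissural axons, was at 0.49 ± 0.52 (SD, n = 4; adjusted p = 0.186). In differentiated cells Unc5b had the highest ratio, 1.26 (adjusted p = 0.211). It passed without proliferating replicate 1 (adjusted p = 0.0257) and with that condition fitted alone (adjusted p = 0.00338), and Ntn2l was at -0.38 (adjusted p = 0.228).

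Markers of several cell types moved with these differences. Of 19 oligodendroglial markers, 4 were higher in proliferating and 9 in differentiated KO cells, with median log2 ratios of 1.32 and 2.06. None passed as lower, and 18 and 16 of the 19 ratios were above 0. Below 0 in differentiated cells were, among others, Olig2 (-0.70, limma adjusted p = 0.0777) and Olig1 (-0.34, limma adjusted p = 0.623). Their summed linear signal was 55084 to 80249 in WT and 75824 to 175964 in KO proliferating samples, and 75611 to 95909 against 218523 to 270172 in differentiated ones. Mog was above background in differentiated KO cells alone, and Mobp and Enpp6 in no proliferating WT sample. Of 19 neuronal markers tested, 1 was higher and 1 lower in proliferating KO cells, and 7 were lower in differentiated KO cells, with a median of -1.14. Their summed signal was 32105 to 34582 in WT and 13608 to 15253 in KO differentiated samples, against 12342 to 15883 and 12415 to 13918 in proliferating ones. Stmn2, Gad1 and Dlx2 were above background in both differentiated WT samples and in no differentiated KO sample. They did not pass there (limma adjusted p 0.0715 to 0.271). Elavl3 alone had a ratio above 0 in differentiated cells, 0.23, and did not pass (limma adjusted p = 0.819). Gad2 was above background in no group. The rises of Plxnb3, Sema3b, Sema6a and Efnb3 and the fall of Epha3 stand beside these marker shifts, and the part of cell composition in them was not tested.

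Astroglial markers were higher for 4 of 16 in differentiated KO cells, with summed signals of 259440 to 262968 in WT and 264197 to 364957 in KO samples. Cell cycle genes were higher for 13 of 19 in differentiated KO cells, with summed signals of 12428 to 17062 in WT and 26108 to 30163 in KO samples. Of 14 neural stem and progenitor markers, 1 was higher in differentiated cells (Prom1) and 0 passed in proliferating cells (limma; 8 at an unadjusted p under 0.05), and all 14 were above background in every group. Of 6 ependymal markers on the arrays, 3 were higher and 1 lower in differentiated KO cells. Of the microglial markers, 8 of 11 were above background in no proliferating sample of either genotype, Aif1, Itgam, Cx3cr1 and Csf1r among them. No endothelial, fibroblast or microglial marker passed between KO and WT cells, over the 9, 8 and 2 tested (at an unadjusted p under 0.05, 3, 6 and 1 in proliferating and 2, 3 and 0 in differentiated cells, limma), and Cdh5, Cldn5, Tie1, Dcn and Lum were above background in no group.

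The genes that carry guidance signals inside the cell were followed with a list of 63 effectors and co-receptors, of which 61 were tested. In proliferating cells 0 passed (limma; 11 at an unadjusted p under 0.05). In differentiated KO cells 3 were lower and none higher: Cntn2, an axonal adhesion molecule (at least 1.90-fold; -0.93, adjusted p = 0.0156), Chn1, a Rac inactivator that acts after ephrin signals (-0.60, adjusted p = 0.0347), and Crmp1, a mediator of semaphorin signals (-0.82, adjusted p = 0.0493). Cntn2 was well above background in the differentiated WT cells alone. "At least" marks a probe that no array of the dimmer group measured well above background. There the dim level on each array is its measured signal, or the smallest signal of any probe well above background where that is larger. Such a fold holds for that probe alone and leaves out the spread between arrays, so that other probes can give less. For Epha3, Sema3a, Slit3 and Unc5c, given below, it equals the measured fold. Of 24 tested genes among 29 other guidance cues and receptors, Nell2, a secreted ligand of Robo3, was lower in proliferating KO cells, at -1.52, -1.03, -0.996 and -1.16 on the 4 arrays (fitted -1.18, adjusted p = 0.0197), and 0 passed in differentiated cells (limma; 7 at an unadjusted p under 0.05). The medians of these lists were 0.02 and -0.11 in proliferating and 0.01 and 0.0030 in differentiated cells. Over all genes the median was -0.01 in each condition. That of the other cues in proliferating cells lay furthest from it, with 10 of 24 ratios above 0.

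Mitogen withdrawal was then followed within each genotype, from the signals of the single channels. In WT cells 12 of 60 guidance genes passed, 10 higher and 2 lower after withdrawal. That is 20%, beside 14.9% of all 18050 genes in that fit (9.03% higher and 5.89% lower). In KO cells 12 of 60 passed as well, 8 higher and 4 lower, beside 15.2% of all genes (9.14% higher and 6.09% lower). The median change of the 60 was 0.26 in WT and 0.21 in KO cells on the log2 scale, against 0.05 and 0.05 over all genes. Of the 15 genes that passed in either genotype, 9 passed in both: Efnb3, Plxna4, Sema4a, Sema4g, Sema6b, Slit3 and Unc5c rose, and Ephb2 and Sema3a fell. These changes set arrays of different slides against each other. The counts under alternatives that follow are of guidance genes only, without the share of all genes beside them. Leaving out proliferating replicate 1, 2, 3 or 4 left 4, 5, 8 and 20 calls in WT and 1, 4, 8 and 16 in KO cells, and leaving out differentiated replicate 1 or 2 left 2 and 5 in WT and 1 and 2 in KO cells. Without both arrays of unequal sex-linked signal 8 genes passed in WT and 3 in KO cells; beside the genes for which it is given below, this lost the calls of Sema6b in both genotypes (adjusted p = 0.0576 and 0.0508) and of Sema4g, Sema3b, Unc5c, Epha2 and Ntn1 in KO cells (0.0580 to 0.103).

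**Figure D3:**
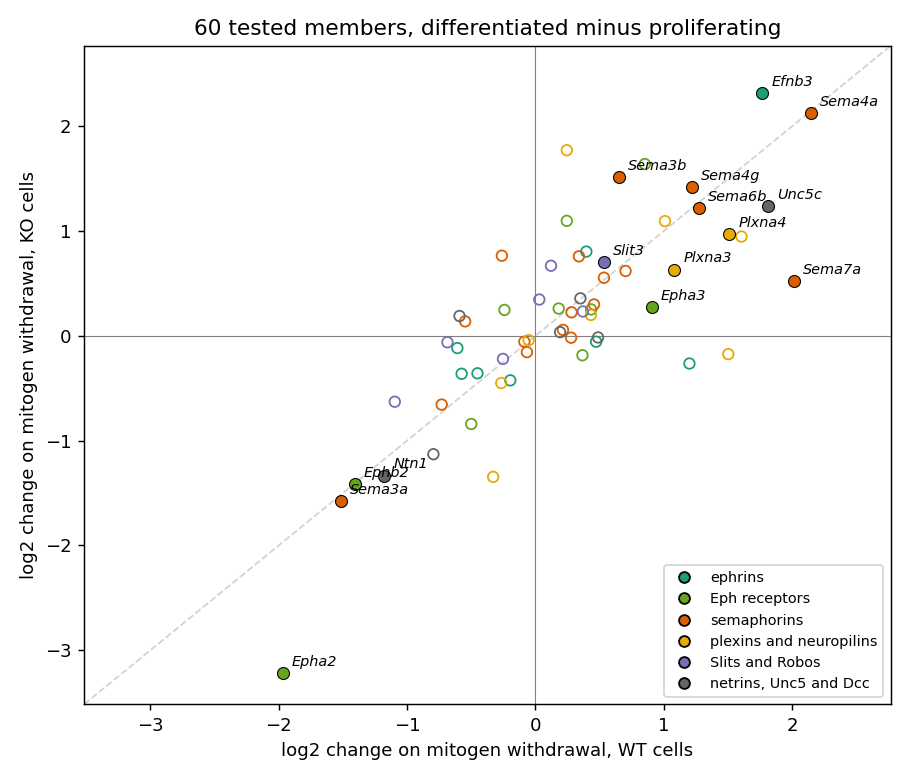
Log2 change on mitogen withdrawal, differentiated minus proliferating, of the 60 tested guidance genes in WT cells (x axis) and KO cells (y axis), coloured by family; filled points passed in at least 1 genotype and the dashed line marks equal changes. Efnb3 (1.77 and 2.32) and Sema4a (2.14 and 2.13) lie highest among the named genes and Epha2 (-1.97 and -3.21) lowest; both axes rest on the same 6 arrays.

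Efnb3 had the largest change in KO cells among the genes that rose. Its signal rose by 1.77 (3.40-fold, adjusted p = 0.00205) in WT and by 2.32 (4.98-fold, adjusted p = 0.000918) in KO cells, from the levels given above. Both genotypes kept the call under every alternative run. No other ephrin passed.

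Among the Eph receptors, Ephb2 fell in both genotypes. Ephb2, a receptor kinase that also acts at synapses, stood at 10.93, 10.49, 11.04 and 9.98 in proliferating and at 9.28 and 9.12 in differentiated WT cells. The KO levels were 10.35, 10.47, 11.03 and 10.01 before and 9.25 and 8.85 after withdrawal, and the conditions did not overlap in either genotype. The changes were -1.41 (adjusted p = 0.0158) and -1.42 (adjusted p = 0.0159). Both calls were lost without proliferating replicate 1 or 2 or either differentiated replicate (adjusted p 0.0603 to 0.168 in WT and 0.0564 to 0.188 in KO cells). Epha2 fell by 3.21 in KO cells (adjusted p = 0.0338) and was at -1.97 in WT cells (adjusted p = 0.145), with 1 of 2 differentiated samples above background in each. The KO call of Epha2 was lost without proliferating replicate 1, 2 or 3 or either differentiated replicate (adjusted p 0.0726 to 0.257), and Agilent's processed signals gave -5.06. Epha3 rose in WT cells by at least 1.88-fold (0.91, adjusted p = 0.0133) and was at 0.27 in KO cells (adjusted p = 0.338).

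The semaphorins, the largest family, gave the most calls, 4 rises and 1 fall in each genotype. That is 27.8% of the 18 tested in each genotype, beside 14.9% of all genes in WT and 15.2% in KO cells. Of the 7 tested netrin, Unc5 and Dcc genes, 14.3% passed in WT and 28.6% in KO cells. Sema4a, a transmembrane class 4 semaphorin, stood at 7.12, 7.31, 6.65 and 7.88 in proliferating and at 9.51 and 9.26 in differentiated WT cells. KO cells had 7.66, 7.36, 7.00 and 8.17 before and 10.11 and 9.25 after withdrawal, with no overlap between the conditions. It rose by 2.14 (adjusted p = 0.00715) in WT and by 2.13 (adjusted p = 0.00790) in KO cells. The call of Sema4a was lost in WT cells without differentiated replicate 1 (adjusted p = 0.0716) or both arrays of unequal sex-linked signal (0.09999), and in KO cells without differentiated replicate 1, proliferating replicate 1 or both those arrays (0.0538 to 0.0986). Sema6b, a transmembrane ligand of A plexins, rose by 1.28 (adjusted p = 0.00610) and 1.22 (adjusted p = 0.00784), and Sema4g by 1.22 (adjusted p = 0.0193) and 1.42 (adjusted p = 0.0115). Sema3a, the secreted repellent that collapses growth cones, fell by 1.52 (adjusted p = 0.0130) in WT cells, where it was no longer above background afterwards (at least 2.86-fold lower), and by 1.58 (adjusted p = 0.0114) in KO cells. A second Sema3a probe, above background on 4 arrays, gave -0.68 in each genotype, so that the probes disagree in size. Agilent's processed signals gave -3.46 in WT and -2.78 in KO cells, and the median over probes -0.67 and -0.69 (adjusted p = 0.0606 and 0.0536). Without proliferating replicate 1 or either differentiated replicate, the calls of Sema6b in both genotypes (adjusted p 0.0502 to 0.111), of Sema4g in KO cells (0.0575 to 0.145) and of Sema3a in both genotypes (0.0669 to 0.152, also without proliferating replicate 2) were lost.

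Sema7a rose by 2.01 in WT cells (adjusted p = 0.0163), from 7.23, 7.70, 7.69 and 7.17 to 9.45 and 9.47. In KO cells it was at 7.35, 7.86, 8.24 and 8.58 before and at 8.53 and 8.53 after withdrawal, a change of 0.52 (adjusted p = 0.434). The WT conditions were apart, and the KO conditions overlapped. Sema3b rose by 1.51 in KO cells (adjusted p = 0.0159) and was at 0.65 in WT cells (adjusted p = 0.195). The WT call of Sema7a was lost without proliferating replicate 1 or 3 or either differentiated replicate (adjusted p 0.0671 to 0.198), and the KO call of Sema3b without proliferating replicate 1, 2 or 3 or either differentiated replicate (0.0704 to 0.195). For neither gene did the difference between the genotypes pass (adjusted p = 0.217 and 0.285).

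Of the receptors of the semaphorins, Plxna4, a receptor of Sema3a and Sema6a, rose by 1.51 (adjusted p = 0.00930) in WT and by 0.97 (adjusted p = 0.0457) in KO cells. It stood at 6.64, 7.05, 6.55 and 7.31 in proliferating and at 7.94 and 8.85 in differentiated WT cells, and 2 of the 4 proliferating WT samples were above background. The WT call of Plxna4 was lost without proliferating replicate 1 or 2, differentiated replicate 2 or both arrays of unequal sex-linked signal (adjusted p 0.0565 to 0.0892). That change was 2.61 with Agilent's processed signals, 0.81 with the median over probes and 0.91 without differentiated replicate 2. Plxna3 rose by 1.08 in WT cells (adjusted p = 0.0414) and was at 0.63 in KO cells (adjusted p = 0.178). Plxnb3 did not pass in either genotype (0.24 in WT and 1.77 in KO cells, adjusted p = 0.825 and 0.0792). Neither neuropilin passed.

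Slit3, a secreted Robo ligand, rose from below background in both genotypes, by at least 1.45-fold in WT (0.53, adjusted p = 0.0417) and at least 1.63-fold in KO cells (0.71, adjusted p = 0.0159). A second Slit3 probe, above background on 2 arrays, gave -0.37 and -0.26, so that the probes disagree in sign. Unc5c, a repulsive netrin receptor, stood at 6.29, 6.43, 6.16 and 6.37 in proliferating WT cells, none above background, and at 8.45 and 7.81 in differentiated ones. It rose by at least 3.52-fold in WT (1.81, adjusted p = 0.00241) and by 1.24 (2.36-fold, adjusted p = 0.0116) in KO cells, where 2 of the 4 proliferating samples were above background. The changes of Unc5c were 3.94 and 2.40 with Agilent's processed signals, and 0.91 and 0.60 with the median over its probes, of which the second was above background on 0 arrays. Ntn1 fell by 1.33 in KO cells (adjusted p = 0.0404) and was at -1.18 in WT cells (adjusted p = 0.0607), and the median over probes gave -0.72 in KO cells (adjusted p = 0.0953). The WT call of Unc5c was lost without differentiated replicate 1 (adjusted p = 0.0682), and the KO calls of Unc5c (0.0519 to 0.105) and Ntn1 (0.0759 to 0.269) without any one array but proliferating replicate 4.

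**Figure D4:**
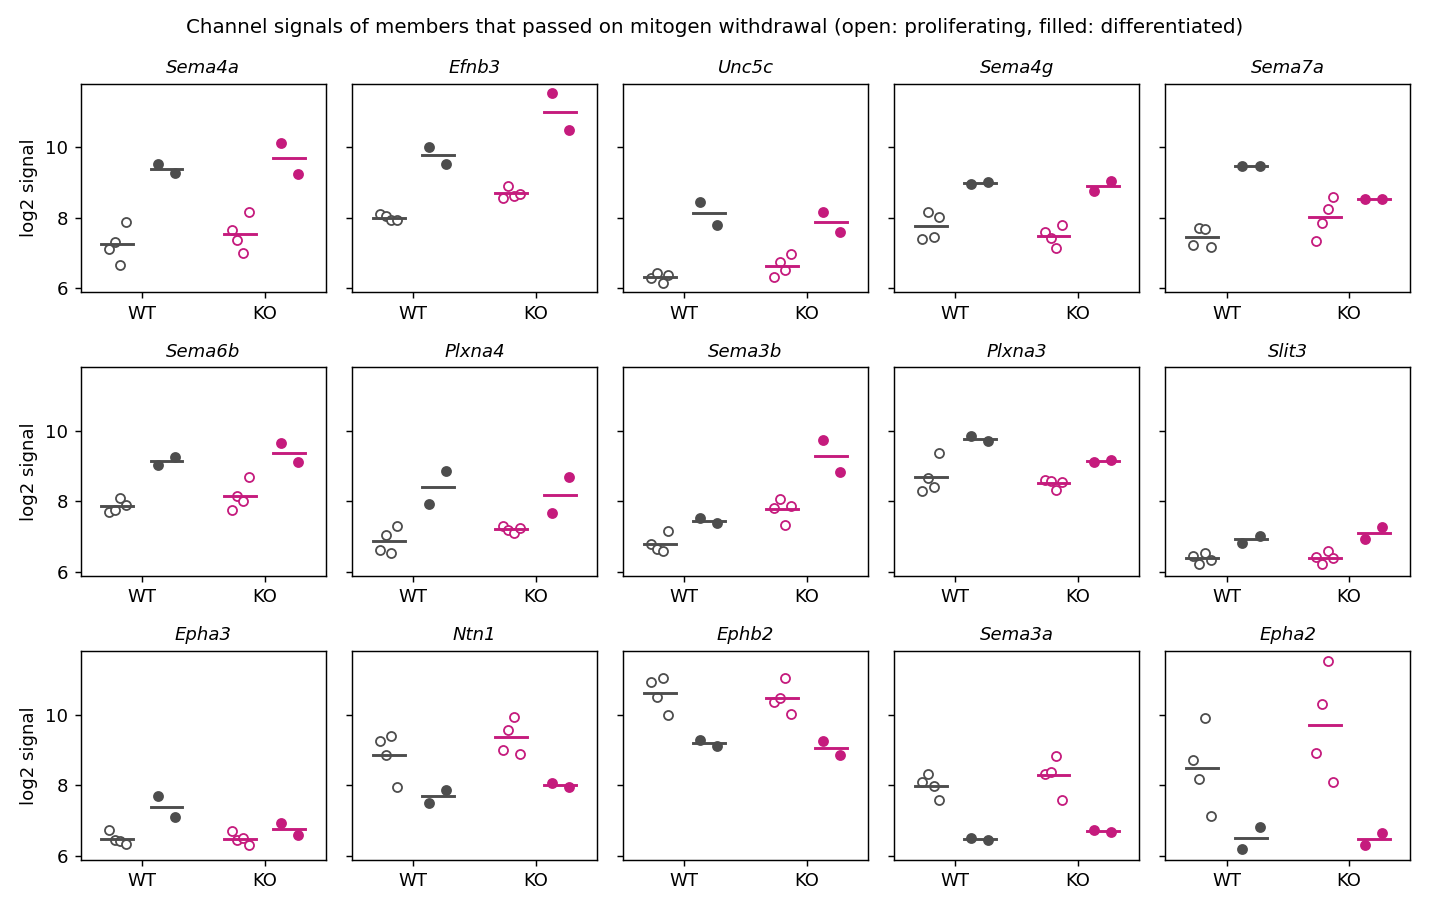
Log2 signal of the 15 guidance genes that passed on mitogen withdrawal in WT (grey) or KO (magenta) cells; open circles are the 4 proliferating samples, filled circles the 2 differentiated ones and lines their means. Efnb3, Sema4a and Unc5c lie higher and Ephb2 and Sema3a lower in all differentiated samples of both genotypes, while the KO samples of Sema7a overlap between the conditions; panels are not to be compared with each other.

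Of the 61 effectors and co-receptors, 8 rose and 5 fell in WT (21.3%) and 3 rose and 6 fell in KO cells (14.8%), beside 14.9% and 15.2% of all genes, so that the share in KO cells was near that of all genes. Rac3, a neuronal Rac GTPase (1.46 in WT and 1.32 in KO cells, adjusted p = 0.000960 and 0.00183), and Ngef, the exchange factor that couples Epha4 to RhoA (1.42 and 1.52, adjusted p = 0.00112 and 0.00115), rose in both. Cntn2 rose by at least 2.09-fold (1.07, adjusted p = 0.00270) and Rnd1, a GTPase that binds plexins, by 1.52 (adjusted p = 0.00510) in WT cells. Arhgef11, the exchange factor that links B plexins to RhoA, fell in both genotypes (-0.75 in WT and -0.82 in KO cells, adjusted p = 0.0245 and 0.0180), as did the kinase Pak1 (-0.83 and -0.86, adjusted p = 0.0274 and 0.0239). Of the 24 other cues and receptors, 3 rose and 3 fell in WT (25%) and 3 rose and 2 fell in KO cells (20.8%). Cxcr4, the chemokine receptor of migrating progenitors, rose by 1.71 (adjusted p = 0.0180) and 1.85 (adjusted p = 0.0133), and Wnt5a, a repulsive ligand of Ryk, was at -0.82 (adjusted p = 0.0132) and -0.65 (adjusted p = 0.0307). Nell2 (-1.22, adjusted p = 0.0117) and the proteoglycan Sdc1 (-1.55, adjusted p = 0.0284) fell in WT cells, and Lrrc4 (1.17, adjusted p = 0.0200) and Boc, a co-receptor of Shh (1.02, adjusted p = 0.0237), rose in KO cells.

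Over the same withdrawal the cell cycle genes fell, 18 of 19 in WT and 15 of 19 in KO cells, with medians of -3.87 and -2.69. Their summed signals went from 47111 to 176018 in proliferating WT samples to 12428 to 17062 in differentiated ones, and Aurkb and Bub1 were above background in no differentiated WT sample. Neuronal markers rose for 9 of 19 in WT cells, and for 4 with 1 fall in KO cells. Astroglial markers rose for 5 with 1 fall of 16 in WT and for 7 in KO cells, and oligodendroglial markers rose for 2 with 1 fall of 19 in WT and for 8 with 1 fall in KO cells. Of 9 endothelial and mural markers tested, Pdgfrb and Esam rose in both genotypes (4.12 and 0.61 in WT cells), and Cdh5, Cldn5, Tie1, Rgs5 and Abcc9 were above background in no group. The part of these shifts in the changes of the guidance genes was not tested.

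In all, 42 of the 60 tested guidance genes passed in no comparison, among them 7 of 8 ephrins, both neuropilins, Slit1 and Slit2, and all Robos but Robo2. Single array ratios of KO over WT often crossed 0. Over the 60 tested genes, those that passed included, the 4 proliferating arrays shared one sign for 23 genes and both differentiated arrays for 42. The same counts were not taken over all genes.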

How the data were processed

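Each array's spots were read from the authors' deposited scanner files, whose intensity columns give, for Cy3 and Cy5, a mean signal and a median local background; per the file headers they were made with Agilent Feature Extraction 9.5.1.1 on design 014868, with positions on build mm7. The log10 column is red over green, per the file headers. A deposited table of log10 values proved identical to it, within 5e-06, once every array is oriented as KO over WT.

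Signals were corrected with limma 3.58.1 in R 4.3.3 (normexp, offset 50) and loess within arrays; 1639 control spots and 859 outlier spots were left out. Log2 ratios of all 6 arrays were fitted with a mean ratio for each condition plus a term for dye (3 residual and 2.56 prior degrees of freedom), and withdrawal with the separate-channel fit after Aquantile (intraspot correlation 0.764). Adjusted p-values are 2-sided Benjamini-Hochberg values over all genes tested. An accession match gave 22951 probes their gene name, and for 18223 the name in the file was used. The scripts were tested on simulated data.

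Named were the genes that passed between KO and WT, per family the 2 with the smallest p in each such comparison, per genotype the 6 largest rises and 6 largest falls on withdrawal, and up to 4 genes per comparison from the effector and other-cue lists. Plxna3, Slit3, Epha4, Ephb3 and the other genes given as ends of a range, Robo1, Robo4, Sema7a, Prom1, Pdgfrb and Esam, where the rule does not take them, were named after their values were seen. So were Olig1 and Olig2. The guidance genes and all lists were chosen with earlier results of these data known. Promoter windows came from RefSeq.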

Additional observations from a re-analysis of the deposited data

Results flagged for a closer look

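Robo4 had negative KO over WT ratios on all 4 proliferating arrays (-0.67, -0.34, -0.20 and -0.91) and positive ones on both differentiated arrays (0.05 and 0.14). The difference, differentiated minus proliferating, was 0.62 on the log2 scale and did not pass (limma adjusted p = 0.354). In differentiated cells 1 of the 4 samples was above background. No sample stood far from the other three in any of the 32 groups of 4 checked.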

How the results depend on the processing

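The guidance genes that passed between KO and WT numbered 2 in proliferating cells; 5 passed with Agilent's processed signals, 1 with median centring, 1 with the median over a gene's probes, 0 with the condition fitted alone and 0 to 1 with 1 array left out. In differentiated cells 5 passed, against 11 without both arrays of unequal sex-linked signal, 16 with the condition fitted alone and 0 to 7 with 1 array left out. For the difference of KO effects 0 passed, against 1 with processed signals (Epha3) and 1 without the dye term (Plxnb3). On withdrawal 12 passed in each genotype; 2 to 20 in WT and 1 to 16 in KO cells passed with 1 array left out, and 3 in KO cells without both arrays of unequal sex-linked signal. The ratio of Epha3 in proliferating cells, where its probe was not above background, changed sign to -0.035 with processed signals, -0.0023 with median centring, -0.030 with the median over probes, -0.030 without both of those arrays, and lay between -0.015 and 0.051 with 1 array left out. The cause of these changes was not tested. The counts over all genes under each alternative are not given here. The changing counts of guidance genes therefore cannot be read as particular to them. With the replicate block 0 genes passed for the difference, as a random (correlation 0.0523) or fixed block. Added after seeing the data, a fixed replicate block in the withdrawal fit gave 23 in WT and 26 in KO cells. The KO over WT ratios of same-numbered arrays correlated at 0.1523 and 0.2745, over 2 pairs, which share only a number. Their deviations from the condition means, with the dye term removed, correlated at 0.342 and 0.317. These last values cannot show a pairing. Same-numbered arrays have opposite dyes, and removing a dye term fitted on the same arrays by itself makes such deviations correlate positively. Of the named values that passed, 215 of 325 under an alternative stayed past the threshold and 110 did not, none with its sign turned. A slide block was not run, since slide and condition cannot be told apart.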
